A study of Mus musculus and Acomys cahirinus with 84 samples.

Results

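Cultured skin fibroblasts of the African spiny mouse, *Acomys cahirinus*, were compared 12 d after 10 Gy of gamma irradiation with untreated cells that the labels call passaged. The members were the 4 libraries titled 10 Gy and the 4 titled untreated passaged in the 12 d series of this species, 8 of the 84 libraries of the study, and they were paired by the replicate number in their titles. The study as a whole profiled polyA RNA from primary skin fibroblasts of *A. cahirinus*, of mice labelled C56BL6 and of wild mice after 0, 10 or 20 Gy. 4 further groups are set beside the 8 libraries here. They are 4 *A. cahirinus* libraries labelled untreated at 12 d, 4 *A. cahirinus* libraries at 12 d after 20 Gy, and 2 groups of 4 libraries of C56BL6 mice at 12 d, passaged and 10 Gy. No transgene, drug or other treatment is named for any of these groups, and the labels give neither the age nor the sex of the animals. The labels do not say how often or when the passaged cells were split, nor whether the libraries labelled untreated or irradiated were passaged. The passaged group therefore differs from the 10 Gy group in radiation and possibly in culture handling, and these cannot be told apart in this comparison.

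Ionizing radiation breaks DNA. The transcription factor p53 then raises genes such as Cdkn1a, whose product p21 blocks cyclin-dependent kinases, and in the resulting arrest the RB family and the DREAM complex shut down the genes of DNA replication and mitosis. Cells that do not resume division can become senescent, a state known for the CDK inhibitors Cdkn2a and Cdkn2b, loss of lamin B1 and secretion of cytokines, proteases and growth factors. A passaged culture is replated at lower density, which usually allows cells to keep dividing, whereas crowded fibroblasts leave the cycle without damage.

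The passaged libraries held 25.55 to 28.86 M counts and the 10 Gy libraries 28.62 to 41.83 M, so that 3 counts, the floor used here for detection, correspond to 0.0717 to 0.117 counts per M (CPM). This floor covers counting error only. Libraries with the same replicate number carry the same code in their library names and deviated together from their group means, with correlations across genes of 0.48, 0.82, 0.56 and 0.71 for replicates 1 to 4. The tests below therefore compared the groups within replicate numbers, and this term is called the replicate block. Both libraries of replicate 2 stood apart from the other 6 along the second principal component, which held 28.9% of the variance. The p-values measure the spread between the 4 pairs of passaged and 10 Gy libraries.

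The label of a skin fibroblast was checked against marker genes. Col1a1, which encodes a chain of type I collagen, was at 6819, 7445, 7165 and 6837 CPM in the passaged libraries of replicates 1 to 4 and at 6158, 6205, 7217 and 7874 CPM in the 10 Gy libraries. Vim, Prrx1 and Pdgfrb, which mark mesenchymal cells, had passaged means of 2765 ± 587, 673 ± 38.8 and 170.0 ± 55.3 CPM (SD, n = 4). The least abundant of the 10 fibroblast markers was Twist1, a mesenchymal transcription factor, at 3.05 to 7.59 CPM passaged and 4.99 to 12.4 CPM after 10 Gy. Of the 10, 4 were called higher and 1 lower after 10 Gy, and 0 were called without the replicate block. Several markers of skeletal muscle were abundant as well. Myod1, the transcription factor that commits cells to the muscle lineage, was at 185, 73.4, 172 and 166 CPM in passaged libraries and 173, 45.7, 177 and 151 CPM after 10 Gy. Myog, which drives muscle differentiation, was at 594, 296, 687 and 559 CPM passaged and 929, 337, 878 and 813 CPM after 10 Gy. Both genes were lowest in replicate 2 of each group. Per kb of gene length in the table, passaged means ran from 2.73 CPM (Twist1) to 1996 CPM (Col1a2) over the 10 fibroblast markers. The fibroblast receptor gene Pdgfra, at 3.36 CPM, was near the low end. Over the skeletal muscle markers these means ran from 0.331 CPM (Ckm) to 770 CPM (Acta1), with Myod1 at 79.1 CPM.

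The 6 skeletal muscle markers together summed to 2318, 1341, 2249 and 1914 CPM in the passaged libraries of replicates 1 to 4 and to 5449, 1995, 4608 and 4738 CPM after 10 Gy. Most of the passaged sum was Acta1 and Myog, with means of 1201 and 534 CPM. Pax7 and Myf5 had passaged means of 41.2 and 29.2 CPM, and Ckm was at 0.249 to 0.851 CPM. All 6 markers were detected in both groups. In C56BL6 libraries their sum was 89.2 to 158 CPM when passaged, with 4 of the 6 at 0 counts in every library, and 7.73 to 26 CPM after 10 Gy. The *A. cahirinus* libraries thus carried muscle transcripts that the C56BL6 libraries held at a small fraction of that level. Keratinocyte markers summed to 2.07 to 3.23 CPM in passaged and 3.19 to 5.14 CPM in 10 Gy libraries. Endothelial markers summed to 0.463 to 1.84 and 1.59 to 3.88 CPM, with Cldn5 at 0 in all 8, and leukocyte markers to 2.88 to 3.94 and 1.95 to 4.26 CPM. All 3 endothelial markers tested were called higher after 10 Gy, and 1, Pecam1, without the block, at 0.117, 0.319, 0.141 and 0.214 CPM passaged and 1.18, 1.26, 0.548 and 0.539 CPM after 10 Gy without overlap (log2 fold change 2.11, SE 0.37, adjusted p = 0.00259). Kdr, Tie1 and Cldn5 did not pass the expression filter, and Kdr and Tie1 were higher in 2 and 0 of 4 pairs. Markers this low when passaged pass the filter mainly through higher 10 Gy libraries, so no result is read from the count. Melanocyte markers summed to 6.94 to 7.62 CPM passaged and 8.61 to 11.6 CPM after 10 Gy, and Schwann cell markers, mostly Mbp, to 34.1 to 75.6 and 37.5 to 63.5 CPM. Pericyte or smooth muscle markers were abundant, at 822 to 1477 CPM passaged and 754 to 1780.0 CPM after 10 Gy, and the largest of these was Des, desmin, which skeletal muscle also expresses, at a mean of 893 ± 331 CPM passaged (SD, n = 4). In bulk libraries such as these, a smaller share of cells of a type and less RNA per cell cannot be told apart.

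**Figure D1:**
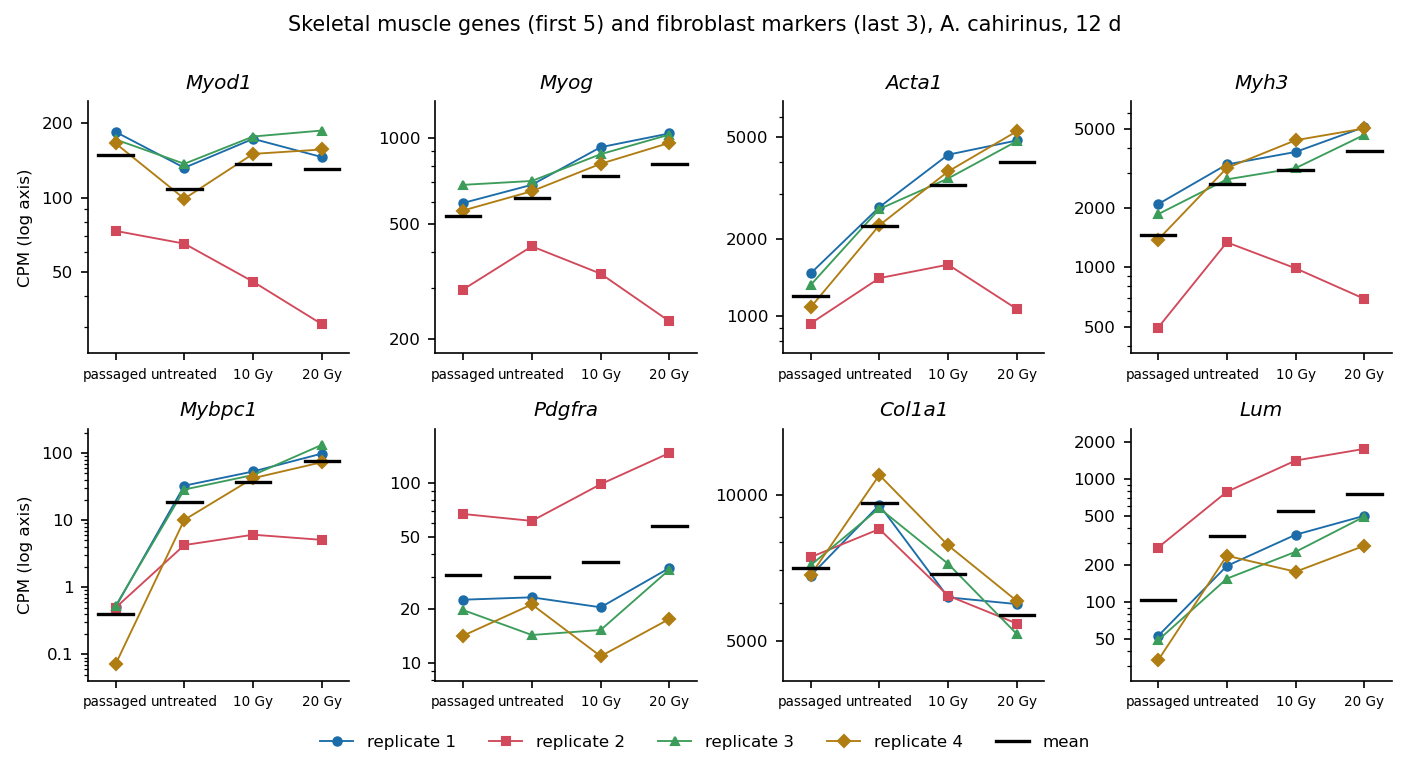
CPM on a log axis of marker genes in each *A. cahirinus* library at 12 d, by group (passaged, untreated, 10 Gy, 20 Gy), with 1 point per library lines joining the libraries of a replicate number and a bar at the group mean. The muscle gene Myod1 lies at 73.4 to 185 CPM in passaged and 45.7 to 177 CPM in 10 Gy libraries, with replicate 2 lowest in each.

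Of 13103 genes tested, 3039 (23.2%) were called higher and 2937 (22.4%) lower after 10 Gy than in passaged cells (edgeR quasi-likelihood test, Benjamini-Hochberg adjusted p under 0.05). The share called in either direction was 45.6%, and every count of a gene group below is to be read against these percentages. At a change of at least 2-fold, 1039 genes (7.93%) were higher and 379 (2.89%) lower. Without the replicate block 2643 genes were called (20.2%), 1294 (9.88%) higher and 1349 (10.3%) lower. Leaving out replicate 1 lowered the count of calls from 5976 to 3764. All adjusted p-values below are from the edgeR test, with the replicate block unless stated, and a second value is given where leaving out the block or a replicate number moved a gene across the threshold.

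**Figure D2:**
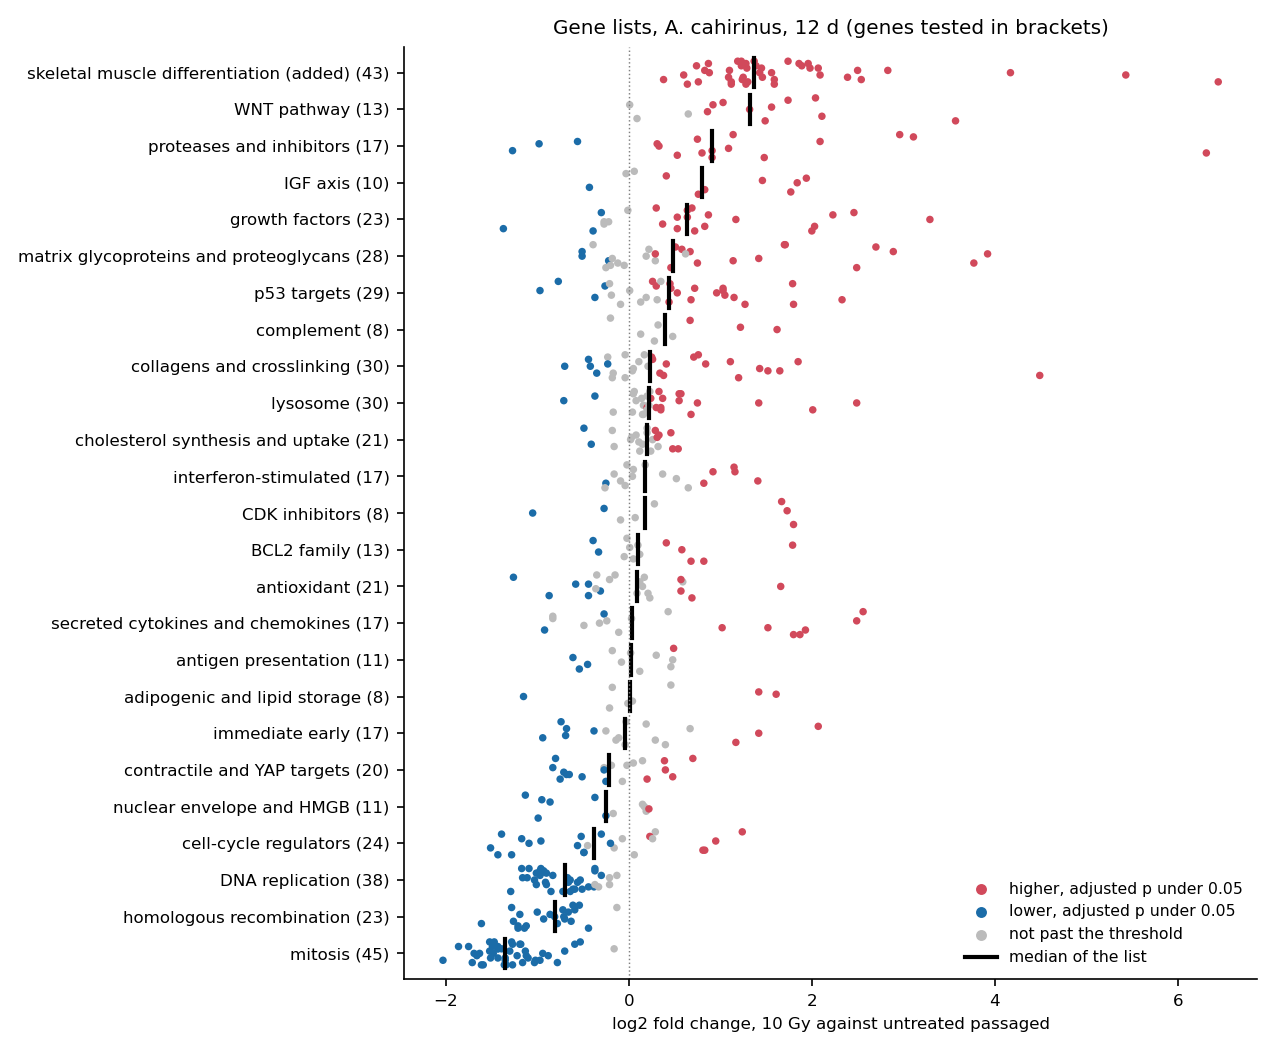
Log2 fold change of every tested member of each gene list, 10 Gy against passaged *A. cahirinus* libraries, with 1 point per gene and a black line at the list's median. All 45 mitosis genes lie below 0, with a median of -1.35, and all 43 skeletal muscle differentiation genes lie above 0, with a median of 1.37.

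The genes of mitosis fell together. Of 45 tested, 44 were lower after 10 Gy and 0 higher, with a median log2 fold change of -1.35 beside a median of 0 over all genes, and 32 were called lower without the replicate block. Mki67, a nuclear protein of dividing cells, was at 137, 73.9, 108 and 128 CPM in the passaged libraries of replicates 1 to 4 and at 31.9, 15.2, 60.4 and 51 CPM after 10 Gy. The lowest passaged library, replicate 2, was above the highest 10 Gy library, replicate 3 (log2 fold change -1.61, SE 0.22, adjusted p = 0.000772). Top2a, the topoisomerase that untangles chromosomes before they separate, went from 175, 72.6, 154 and 168 to 47.7, 19.8, 83.2 and 74.1 CPM. It was lower in all 4 pairs although the groups overlapped (log2 fold change -1.43, SE 0.17, adjusted p = 0.000369, against 0.0598 without the replicate block). Ccnb1, the cyclin that starts mitosis, stood at 73.8, 44.3, 78.9 and 75.1 CPM in passaged and 25, 13.3, 40.1 and 26.1 CPM in irradiated libraries, with no overlap (log2 fold change -1.43, SE 0.12, adjusted p = 9.32e-05).

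The 4 mitosis genes with the largest falls at 5 CPM or more were Prc1, Hmmr, Cenpe and Cdc20. Prc1 bundles the microtubules of the central spindle, and its level fell from 126, 75.2, 116 and 108 to 29.2, 13.9, 46.1 and 33.8 CPM (log2 fold change -1.86, SE 0.16, adjusted p = 0.000109). Hmmr, a spindle protein that also binds hyaluronan, fell from 29.6, 19.2, 27.8 and 26.1 to 6.34, 3.85, 11.3 and 10.1 CPM (log2 fold change -1.75, SE 0.19, adjusted p = 0.000244). For Cenpe, a kinetochore motor, the passaged libraries were at 80.5, 46.9, 71.7 and 75.4 CPM and the 10 Gy libraries at 18.9, 9.16, 36.6 and 25.6 CPM (log2 fold change -1.71, SE 0.20, adjusted p = 0.000398). Cdc20 activates the anaphase-promoting complex and was at 74.7, 41.7, 77 and 70.1 CPM passaged and 21, 8.34, 34.1 and 23.5 CPM after 10 Gy (log2 fold change -1.69, SE 0.16, adjusted p = 0.000155). None of the 4 overlapped between the groups, which their choice for large falls favours, and replicate 2 was lowest in both groups for each. Spc24, a kinetochore gene named after its values were seen, was the only mitosis gene not called, at 77.7 ± 15.9 CPM passaged and 69.6 ± 18.2 CPM after 10 Gy (SD, n = 4).

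Promoters of mitotic genes are known to hold CCAAT boxes, bound by NF-Y, and the cell cycle homology region TTTGAA, bound by DREAM. No *A. cahirinus* genome was used here, so the windows shown are of the house mouse orthologues of these 4 genes, from RefSeq on GRCm38.p6, 100 bases up to the base before the most upstream annotated start. They are shown because the mitosis genes moved together. Capitals mark CCAAT and TTTGAA, searched on both strands, so that ATTGG and TTCAAA are the same motifs on the other strand, and the 2 motifs do not overlap in these windows. Prc1 is read from chr7:80294351-80294450 (plus strand), Hmmr from chr11:40733438-40733537 (minus), Cenpe from chr3:135212463-135212562 (plus) and Cdc20 from chr4:118437344-118437443 (minus).
Prc1: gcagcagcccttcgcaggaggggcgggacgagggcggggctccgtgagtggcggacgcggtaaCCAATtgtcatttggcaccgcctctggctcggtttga
Hmmr: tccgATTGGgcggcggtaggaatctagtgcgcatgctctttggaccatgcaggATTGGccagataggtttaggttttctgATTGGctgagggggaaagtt
Cenpe: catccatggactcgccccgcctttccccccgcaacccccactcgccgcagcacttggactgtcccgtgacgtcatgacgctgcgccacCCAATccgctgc
Cdc20: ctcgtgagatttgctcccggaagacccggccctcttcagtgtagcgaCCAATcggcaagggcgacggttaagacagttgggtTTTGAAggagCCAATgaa
All 4 windows hold at least 1 CCAAT and Cdc20 holds a TTTGAA as well. CCAAT was in 23 of the 38 mitosis genes with a window (60.5%), in 14 of 31 replication genes (45.2%) and in 19.6% of all 27025 mouse windows. TTTGAA was in 8 of the 38 mitosis windows (21.1%), 2 of 31 replication windows (6.45%) and 5.9% of all windows. A match describes these letters in the house mouse and is not a binding site shown in these cells.

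DNA replication genes moved the same way by less. Of 38 tested, 33 were lower and 0 higher, the median log2 fold change was -0.70, and 9 were called lower without the block. Mcm5, a subunit of the replicative helicase, was at 35.2, 17.3, 38.8 and 40.7 CPM in passaged and 12.7, 7.46, 25.7 and 17.9 CPM in 10 Gy libraries. The passaged library of replicate 2 was below the 10 Gy libraries of replicates 3 and 4, yet each pair fell (log2 fold change -1.09, SE 0.14, adjusted p = 0.000532, against 0.0871 without the replicate block). The largest fall at 5 CPM or more was in Tk1, thymidine kinase, from 14.1, 10.5, 16.5 and 19.8 to 5.16, 4.56, 8.8 and 6.2 CPM without overlap (log2 fold change -1.29, SE 0.14, adjusted p = 0.000262). Pole2, a subunit of DNA polymerase epsilon, Uhrf1, which maintains DNA methylation behind the fork, and Pold1, the catalytic subunit of polymerase delta, fell by 1.17, 1.16 and 1.11 on the log2 scale, and these 3 calls were lost without the block (adjusted p = 0.0699, 0.125 and 0.0511).

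Homologous recombination repairs breaks with the sister chromatid and is active in S and G2. Of 23 genes of this pathway 22 were lower and 0 higher, with a median of -0.81, and 9 were called lower without the block. Fanci, of the Fanconi anaemia pathway, fell from 19.9, 9.86, 17.1 and 10.7 to 5.3, 2.35, 7.94 and 3.69 CPM (log2 fold change -1.61, SE 0.16, adjusted p = 0.000207). Fancm, its translocase, and Fanca, a subunit of its core complex, fell by 1.28 and 1.26 on the log2 scale (adjusted p = 0.000193 and 0.000244). Brca1, which loads the recombinase, was at 19, 8.69, 17.4 and 20.4 CPM in passaged cells and 5.68, 2.69, 12.5 and 9.08 CPM after 10 Gy, lower in all 4 pairs (log2 fold change -1.21, SE 0.20, adjusted p = 0.00211, against 0.106 without the replicate block).

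Among 24 regulators of the cycle, 13 were lower and 5 higher, against 3 and 2 without the block. E2f1, the activating factor of S phase genes, moved from 39.6, 22.8, 38.7 and 42.2 to 23.8, 17.3, 28.8 and 28.7 CPM (log2 fold change -0.52, SE 0.08, adjusted p = 0.00177, against 0.112 without the replicate block). Its relative E2f8, a repressor that is itself a target of E2F, fell further (log2 fold change -1.51, SE 0.19, adjusted p = 0.000592, against 0.0839 without the replicate block). Foxm1, which drives mitotic genes, fell from 51.5, 28.7, 46.2 and 50 to 14.8, 9.77, 24 and 19.5 CPM (log2 fold change -1.39, SE 0.13, adjusted p = 0.000161), and Ccna2, cyclin A, fell by 1.43 on the log2 scale (adjusted p = 0.00014). Cyclin D genes went the other way. Ccnd1, which couples growth signals to the cycle, was at 315, 394, 227 and 155 CPM in passaged and 696, 1082, 440.3 and 399 CPM in 10 Gy libraries, with no overlap and replicate 2 highest in each group (log2 fold change 1.24, SE 0.10, adjusted p = 6.66e-05, against 0.0556 without the replicate block). The other two cyclin D genes were also called higher, Ccnd2 with a log2 fold change of 0.95 (adjusted p = 0.000146, against 0.12 without the replicate block) and Ccnd3 with 0.81. Rbl2, a pocket protein of the DREAM complex, had 0.83.

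Nuclear envelope and HMGB genes were called lower in 6 of 11 cases and higher in 1, against 2 and 0 without the block. Lmnb1, lamin B1, a gene whose loss is used to mark senescence, was at 69.1, 37, 84.5 and 99.7 CPM in passaged and 29, 14.8, 60 and 50 CPM in 10 Gy libraries. The 10 Gy libraries of replicates 3 and 4 lay above the passaged library of replicate 2, and every pair fell (log2 fold change -0.99, SE 0.13, adjusted p = 0.000662, against 0.168 without the replicate block). Hmgb2, a chromatin protein lost in senescent cells, went from 57.1, 35.6, 65.1 and 70.9 to 22.5, 21.3, 41.9 and 32.2 CPM (log2 fold change -0.95, SE 0.12, adjusted p = 0.000612). Lbr, the lamin B receptor, fell from 26.8, 20.3, 29.3 and 29.5 to 10.7, 8.85, 14.9 and 14 CPM without overlap (log2 fold change -1.13, SE 0.09, adjusted p = 7.53e-05), and Lmnb2 fell by 0.86 on the log2 scale (adjusted p = 0.000254, 0.0556 without the block). Lmna, of lamins A and C, had a log2 difference of 0.19 (adjusted p = 0.0649).

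The CDK inhibitors split. Of 8 tested, Cdkn1a, Cdkn2a and Cdkn2b were higher, Cdkn1b and Cdkn3 lower, and Cdkn1c, Cdkn2c and Cdkn2d not called. The call of Cdkn1b was not kept under several alternatives (adjusted p = 0.0243, against 0.12 without the replicate block, 0.053 without replicate 1 and 0.116 without replicate 3). Cdkn1a, which encodes p21, was at 456, 408, 434 and 359.7 CPM in the passaged libraries of replicates 1 to 4 and at 1713, 1606, 1216 and 1237 CPM after 10 Gy, 3.49-fold higher with a wide gap between the groups (log2 fold change 1.80, SE 0.10, adjusted p = 2.09e-05). Cdkn2a, which encodes p16 and p19Arf, was at 28.8, 41.9, 25.5 and 27 CPM passaged and 105, 162, 59.5 and 80.1 CPM after 10 Gy. Its lowest irradiated library was above the highest passaged one, and replicate 2 was highest in both groups (log2 fold change 1.67, SE 0.13, adjusted p = 5.85e-05). The counts do not separate the 2 products of this gene. Cdkn2b, which encodes p15, was at 17.1, 30.4, 18 and 27.1 CPM passaged and 78.8, 97.3, 47.2 and 81.4 CPM after 10 Gy, again with no overlap (log2 fold change 1.73, SE 0.13, adjusted p = 5.06e-05). Cdkn3, a phosphatase gene expressed in dividing cells, fell from 15.5 ± 3.6 to 7.56 ± 2.6 CPM (SD, n = 4; log2 fold change -1.05, SE 0.12, adjusted p = 0.000287).

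**Figure D3:**
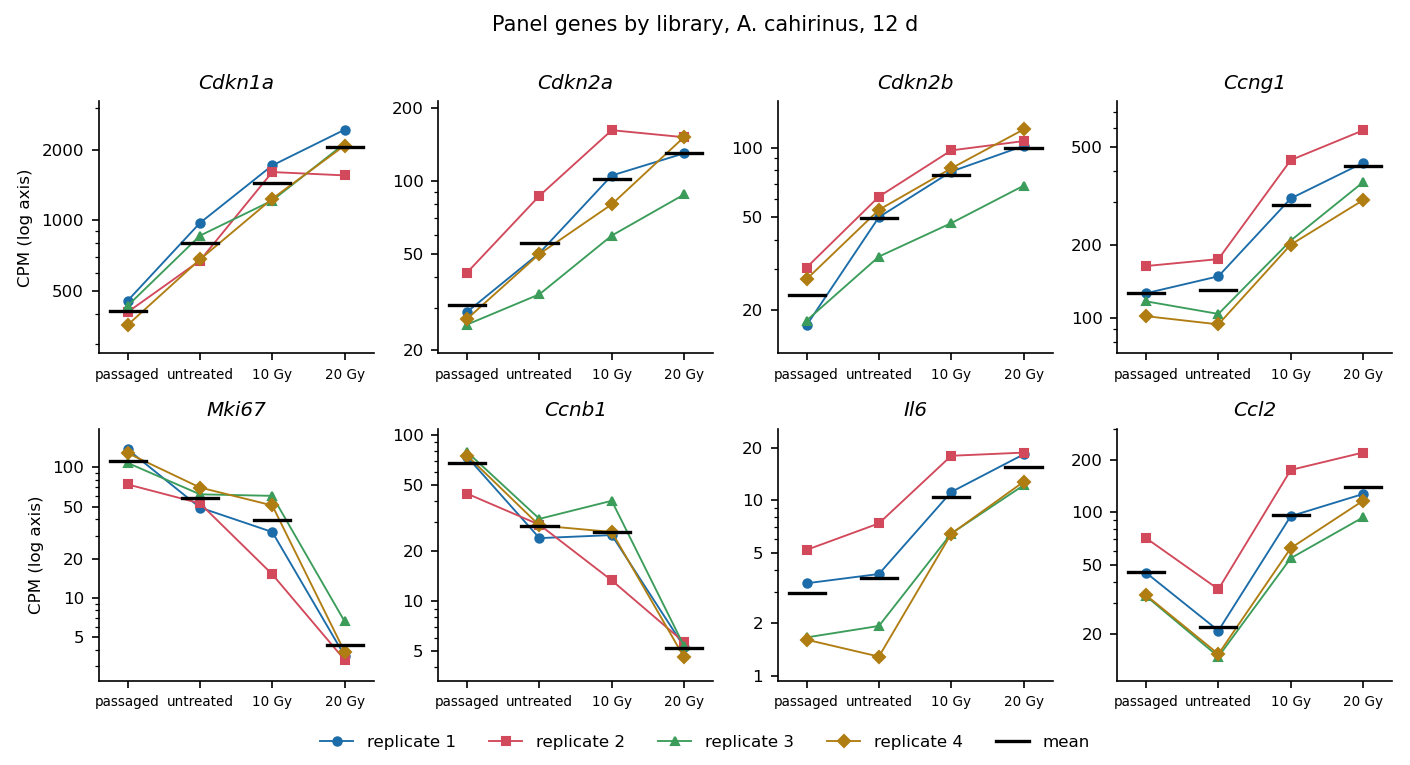
CPM on a log axis of panel genes in each *A. cahirinus* library at 12 d by group (passaged, untreated, 10 Gy, 20 Gy), with 1 point per library, lines joining the libraries of a replicate number and a bar at the group mean. Cdkn1a lies at 359.7 to 456 CPM in passaged and 1216 to 1713 CPM in 10 Gy libraries, and Mki67 at 73.9 to 137 and 15.2 to 60.4 CPM.

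Targets of p53 were mostly higher. Of 29 tested, 17 were higher and 4 lower, with a median log2 fold change of 0.44, and 11 and 2 were called without the block. Eda2r, a death receptor of the tumour necrosis factor family, had the largest rise of the list, from 10.4, 12.8, 8.64 and 4.66 to 53.6, 38, 39.9 and 44.4 CPM (log2 fold change 2.33, SE 0.22, adjusted p = 0.000171). Ccng1, cyclin G1, was at 127, 164, 117 and 102 CPM in passaged and 309, 443, 208 and 199.9 CPM in 10 Gy libraries (log2 fold change 1.15, SE 0.11, adjusted p = 0.000163). Mdm2, the ubiquitin ligase that degrades p53, was at 102, 121, 107 and 92.5 CPM passaged and 183, 262, 126 and 142 CPM after 10 Gy. For all 3 genes the groups did not overlap, and in Mdm2 the gap between the highest passaged and the lowest irradiated library was small (log2 fold change 0.72, SE 0.13, adjusted p = 0.00337, against 0.0542 without the replicate block). Trp53inp1, an activator of p53-dependent death, was at 36, 36.6, 34.8 and 38.3 CPM passaged and 91.7, 73.5, 81.1 and 104 CPM after 10 Gy (log2 fold change 1.27, SE 0.09, adjusted p = 3.94e-05).

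The 4 p53 targets called lower were Gdf15, Sesn2 (adjusted p = 0.0134, against 0.0943 without the replicate block, 0.0866 without replicate 1 and 0.0589 without replicate 3), Plk2 (adjusted p = 0.00451, against 0.0955 without the replicate block) and Fdxr. Gdf15, a stress cytokine, was at 5.47, 5.78, 8.12 and 6.73 CPM in passaged and 3.43, 4.29, 3.62 and 3.81 CPM in 10 Gy libraries, lower in every pair (log2 fold change -0.77, SE 0.15, adjusted p = 0.0046). Among 13 genes of the BCL2 family 5 were higher and 2 lower, against 3 and 0 without the block, and 3 were higher without replicates 1, 3 or 4. Pmaip1, which encodes the death-promoting NOXA, rose from 7.19, 4.86, 6.99 and 4.49 to 31.1, 17.4, 16.2 and 17.1 CPM (log2 fold change 1.79, SE 0.15, adjusted p = 0.000101). Bbc3, which encodes PUMA, and Bid had log2 fold changes of 0.68 and 0.58 (adjusted p = 0.00384 and 0.00207). Bmf, another death promoter, was called higher, but several alternatives ended the call (log2 fold change 0.41, SE 0.12, adjusted p = 0.0249, against 0.337 without the replicate block, 0.0971 without replicate 1, 0.115 without replicate 3 and 0.0656 without replicate 4). Bax, which opens the mitochondrial membrane, and the protective Mcl1 and Bcl2l1 were not called, with log2 differences of 0.01, -0.02 and 0.10.

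Secreted cytokines gave a mixed picture. Of 24 listed, 17 passed the expression filter, 7 of these were higher and 2 lower, against 5 and 0 without the block, and the median log2 fold change was 0.03. Il6, the inflammatory cytokine most often used to describe the senescent secretome, was at 3.36, 5.21, 1.65 and 1.6 CPM in passaged libraries and 11.2, 17.9, 6.46 and 6.44 CPM after 10 Gy, with no overlap (log2 fold change 1.87, SE 0.12, adjusted p = 3.25e-05). Ccl7, a chemokine for monocytes, rose from 4.42, 6.63, 2.92 and 4.27 to 24.4, 36.3, 20.5 and 23.7 CPM (log2 fold change 2.56, SE 0.10, adjusted p = 1.67e-05). Ccl2, its neighbour in function, was at 44.9, 71, 33 and 33.4 CPM passaged and 94.9, 175, 54.4 and 62.2 CPM after 10 Gy. It rose in every pair while the groups overlapped through replicate 2 (log2 fold change 1.02, SE 0.10, adjusted p = 0.000207, against 0.104 without the replicate block). Il18 and Il33, both of the interleukin 1 family, had log2 fold changes of 2.49 and 1.93 (adjusted p = 7.99e-05 and 9.45e-05), and both were highest in replicate 2. Cxcl1, a neutrophil chemokine, stayed below 1 CPM in all 8 libraries, at 0.355 to 0.808 CPM passaged and 0.215 to 0.749 CPM after 10 Gy (log2 fold change -0.32, SE 0.44, adjusted p = 0.573). The summed level of the 24 listed genes was 1352, 1651, 1058 and 826 CPM in passaged and 883, 1507, 594 and 528 CPM in 10 Gy libraries, lower in each pair. Most of that sum was Csf1, the macrophage growth factor, at 1005 ± 308 and 555 ± 285 CPM (SD, n = 4; log2 fold change -0.92, adjusted p = 0.000516, against 0.162 without the replicate block).

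Proteases of the matrix and their inhibitors were called higher in 14 of 17 cases and lower in 3, with a median log2 fold change of 0.91, and in 9 and 2 without the block. In untreated against passaged 15 of the listed genes passed the expression filter. Some of the 17 thus passed it through 10 Gy libraries, which favours rises in this count and median. The stromelysin gene Mmp3 was at 4.42, 4.65, 1.93 and 5.98 CPM in passaged and 11.2, 42.3, 10.7 and 15.1 CPM in 10 Gy libraries, every irradiated library above every passaged one (log2 fold change 2.09, SE 0.31, adjusted p = 0.00112). Mmp13, collagenase 3, was at 0.43, 1.03, 0.667 and 0.356 CPM passaged and 3.81, 11.4, 4.94 and 2.25 CPM after 10 Gy, with replicate 2 highest in both groups (log2 fold change 3.11, SE 0.20, adjusted p = 3.26e-05). Timp2, an inhibitor of these enzymes, rose from 1667, 2313, 1222 and 787 to 5407, 6389.6, 3243 and 1921 CPM (log2 fold change 1.48, SE 0.09, adjusted p = 2.57e-05). Those that fell included Plau, urokinase, which activates plasminogen (adjusted p = 0.000581, against 0.119 without the replicate block), and its receptor gene Plaur. Plaur was at 21.1, 16.6, 21.8 and 25.7 CPM passaged and 7.48, 7.18, 11 and 9.5 CPM after 10 Gy, with no overlap between the groups (log2 fold change -1.27, SE 0.11, adjusted p = 0.000107).

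Genes of the insulin-like growth factor axis were higher in 7 of 10 cases and lower in 1, against 3 and 0 without the block and 4 and 1 without replicate 1. Igf2, the fetal growth factor, was at 661, 290.4, 630.3 and 773 CPM in passaged and 2684, 1008, 2289.7 and 3114 CPM in 10 Gy libraries. Replicate 2 was lowest in both groups, and the groups did not overlap (log2 fold change 1.94, SE 0.07, adjusted p = 1.67e-05). The binding protein genes Igfbp5 and Igfbp2 rose from 86.6 ± 29.7 to 339.7 ± 196 CPM and from 185 ± 43.2 to 535 ± 251 CPM (SD, n = 4; adjusted p = 7.81e-05 and 0.000131). Igfbp6 rose as well (log2 fold change 1.77, SE 0.24, adjusted p = 0.000724, against 0.0637 without the replicate block). Igfbp3, a p53 target in many cells, was at 69.2, 29.4, 87.2 and 185 CPM passaged and 149.7, 89.1, 139.6 and 174 CPM after 10 Gy, higher in 3 of 4 pairs and lower in replicate 4 (log2 fold change 0.83, SE 0.23, adjusted p = 0.0209, against 0.402 without the replicate block and 0.0868 without replicate 1). Igf2 and Igfbp5 are also known from differentiating muscle, and the part of the muscle transcripts above in these changes was not tested.

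Of 23 growth factor genes 16 were higher and 3 lower, against 4 and 1 without the block, and 9 were higher without replicate 1. Fst, follistatin, which binds activins and myostatin, had the largest rise at 5 CPM or more, from 2.46, 3.05, 3.02 and 2.99 to 33.6, 18.4, 22.1 and 43.7 CPM (log2 fold change 3.29, SE 0.22, adjusted p = 3.68e-05). Bmp4 rose from 1.64, 0.887, 1.97 and 1.28 to 8.28, 6.64, 5.32 and 3.63 CPM (log2 fold change 2.03, SE 0.25, adjusted p = 0.000525). Inhbb, an activin subunit, and Hgf, the ligand of the MET receptor, were highest in replicate 2 of each group, at 4.22 and 15.4 CPM for Inhbb and 5.32 and 23.4 CPM for Hgf. Their log2 fold changes were 2.23 and 2.0 (adjusted p = 0.00014 and 4.5e-05, and 0.181 and 0.118 without the block). The most abundant member that fell was Vegfa, the angiogenic factor, from 1455 ± 253 to 562 ± 132 CPM (SD, n = 4; log2 fold change -1.37, adjusted p = 3.93e-05), which was named after its values were seen.

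Collagen and crosslinking genes were called higher in 15 of 30 cases and lower in 5, against 6 and 0 without the block and 11 and 3 without replicate 1. The chains of type I collagen showed no call. Col1a1, whose values are given above, had a log2 difference of -0.04 ± 0.09 (SE, adjusted p = 0.778), and Col1a2 of 0.11 (adjusted p = 0.322). Col3a1, type III collagen, rose from 1093, 1952, 1352 and 1378 to 3133, 6078, 3154 and 4336 CPM without overlap (log2 fold change 1.52, SE 0.09, adjusted p = 2.93e-05). Col11a1, a fibril-regulating collagen, was at 101, 119, 60.3 and 37 CPM passaged and 291, 288, 176 and 171 CPM after 10 Gy (log2 fold change 1.65, SE 0.14, adjusted p = 9.45e-05). Col8a1, a network collagen, was highest in replicate 2, at 391, 1883, 303 and 206 CPM passaged and 1951, 4123, 964 and 973 CPM after 10 Gy, and rose in each pair (log2 fold change 1.85, SE 0.19, adjusted p = 0.000202, against 0.209 without the replicate block). The crosslinking enzymes differed among themselves: Loxl1 rose with a log2 fold change of 1.43 (adjusted p = 1.78e-05), while Lox fell by 0.44 on that scale (adjusted p = 0.00233, 0.186 without the block).

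Other matrix proteins were higher in 15 of 28 cases and lower in 3, against 6 and 0 without the block. Tnc, tenascin C, a protein of wound matrix, was at 123, 184, 109 and 103 CPM in passaged and 627, 1503, 1051 and 743 CPM in 10 Gy libraries, 7.42-fold higher (log2 fold change 2.89, SE 0.14, adjusted p = 1.73e-05). Spp1, osteopontin, rose from 16.7, 5.57, 9.84 and 10.6 to 50.4, 29.7, 30.4 and 23.9 CPM (log2 fold change 1.70, SE 0.18, adjusted p = 0.000228). The small proteoglycan genes Lum and Ogn were highest in replicate 2, Lum at 52.9, 278, 48.8 and 33.5 CPM passaged and 353, 1420.2, 257 and 177 CPM after 10 Gy, and both rose in all 4 pairs (Lum, log2 fold change 2.49, SE 0.09, adjusted p = 1.67e-05, against 0.0974 without the replicate block; Ogn, log2 fold change 1.71, adjusted p = 0.000104, 0.133 without the block). Fn1, Postn and Vcan were not called, with log2 differences of -0.25 (adjusted p = 0.0696, against 0.0387 without replicate 3), -0.18 (adjusted p = 0.101, against 0.0464 without replicate 2) and 0.19. Acta2, the smooth muscle actin of myofibroblasts, was at 4478, 6452, 4435 and 3709.9 CPM passaged and 4607, 6862, 3764 and 3145 CPM after 10 Gy and was not called (log2 fold change -0.07, SE 0.09, adjusted p = 0.527). Of the 20 contractile genes and YAP targets tested, 9 were lower and 5 higher, against 5 and 0 without the block and 7 and 2 without replicate 1. Flna, which crosslinks actin, fell from 4345, 4655, 3677 and 4169 to 2196, 2271, 2615 and 2522 CPM (log2 fold change -0.80, SE 0.10, adjusted p = 0.000546), and Ccn1, a target of YAP, from 1446, 1948, 1406 and 1197 to 788, 1206, 709 and 682 CPM (log2 fold change -0.83, SE 0.08, adjusted p = 0.000139). Actg2 and Smtn of smooth muscle fell by 0.75 and 0.71 on the log2 scale (adjusted p = 0.00156 and 0.00125).

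Genes of skeletal muscle differentiation rose in all 43 cases tested, with a median log2 fold change of 1.37. This list of 46 genes was drawn up after the muscle markers had been seen, so its count describes these libraries and is not separate evidence. Without the block 24 of the 43 were called. The 45 listed genes in the table summed to 7937, 2806, 7509.9 and 6199.6 CPM in the passaged libraries of replicates 1 to 4 and to 20423, 6165, 17247 and 19914 CPM after 10 Gy. The sum was higher in each pair, and replicate 2 was lowest in both groups. Acta1, skeletal actin, was at 1468, 935, 1322 and 1081 CPM passaged and 4275, 1589, 3452 and 3677 CPM after 10 Gy (log2 fold change 1.38 ± 0.15, SE, adjusted p = 0.000253). Mymk, the membrane protein that fuses myoblasts, was at 70.9, 31.6, 69.8 and 58.5 CPM passaged and 191, 55.8, 166 and 176 CPM after 10 Gy (log2 fold change 1.29, adjusted p = 0.000138). Myog had 0.45 (adjusted p = 0.00401, 0.336 without the block), whereas Myod1 and Pax7, a marker of muscle stem cells, were not called, with log2 differences of -0.20 and -0.17. The rise of these genes beside the fall of mitosis genes stands in the same libraries, and how far each belongs to muscle or to fibroblast-like cells was not tested.

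WNT pathway genes were higher in 10 of 13 cases and lower in 0, with a median of 1.32, and 5 were called without the block. The ligand gene Wnt2 went from 0.625, 0.816, 0.913 and 0.641 to 5.71, 8.07, 7.32 and 16.3 CPM (log2 fold change 3.57, SE 0.27, adjusted p = 5.58e-05). Sfrp2, a secreted binder of WNT proteins, was at 1.52, 1.81, 2.21 and 3.7 CPM passaged and 9.94, 4.97, 12 and 12.9 CPM after 10 Gy (log2 fold change 2.11, SE 0.20, adjusted p = 0.00017), and its relatives Sfrp4 and Sfrp1 had log2 fold changes of 1.74 and 1.56, both lost without the block (adjusted p = 0.0545 and 0.194). Of 30 lysosome genes 15 were higher and 2 lower, against 7 and 0 without the block. Gpnmb, a lysosomal membrane glycoprotein, rose from 5.43, 4.54, 3.37 and 5.06 to 26.8, 32.9, 19.2 and 24.2 CPM (log2 fold change 2.49, SE 0.12, adjusted p = 1.73e-05). Npc2, which moves cholesterol out of the lysosome, and Ctsk, a cathepsin that cuts collagen, had 0.75 and 2.01, and Man2b1, a mannosidase, fell by 0.71 on the log2 scale. The calls of Ctsk and Man2b1 were lost without the block (adjusted p = 0.134 and 0.0698). Glb1, whose product is the enzyme behind senescence-associated beta-galactosidase staining, was at 72.4, 82.7, 67.5 and 67.2 CPM passaged and 58.4, 83.8, 59.8 and 55 CPM after 10 Gy and was not called (log2 fold change -0.17, SE 0.08, adjusted p = 0.111, against 0.0171 without replicate 2).

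Interferon-stimulated genes were low. Of 26 listed genes whose symbols were matched, 17 passed the filter, and 5 were higher and 1 lower. Bst2, tetherin, was at 2.93, 2.16, 2.32 and 2.17 CPM passaged and 5.89, 8.92, 3.62 and 3.99 CPM after 10 Gy (log2 fold change 1.16, SE 0.23, adjusted p = 0.00489), and Stat2, of the interferon signalling complex, had a log2 fold change of -0.25 (adjusted p = 0.034, against 0.339 without the replicate block, 0.192 without replicate 1 and 0.0991 without replicate 3). Without the block the interferon list had 3 higher and 0 lower. Antigen presentation genes were called higher in 1 of 11 cases and lower in 3, against 0 and 1 without the block. Erap1, which trims peptides, fell by 0.54 on the log2 scale (adjusted p = 0.000763). The complement list gave 3 higher and 0 lower of 8, with Clu, clusterin, at 22.8, 22.5, 21.3 and 17.6 CPM passaged and 80.4, 66.3, 54.4 and 57 CPM after 10 Gy (log2 fold change 1.62, SE 0.09, adjusted p = 2.54e-05) and Serping1, the C1 inhibitor, with a log2 fold change of 0.67. The shares called in the interferon, antigen presentation and complement lists were below the 45.6% of all genes, as were those of the cholesterol and adipogenic lists that follow.

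Cholesterol genes were higher in 6 of 21 cases and lower in 2, against 2 and 1 both without the block and without replicate 1, and Fdft1, squalene synthase, had a log2 fold change of 0.48 (adjusted p = 0.00118). Antioxidant genes were higher in 4 and lower in 6 of 21, against 2 and 4 without the block. Slc7a11, which imports cystine, fell from 24.6, 22.3, 33.3 and 29.1 to 10.9, 5.18, 16.4 and 15.3 CPM (log2 fold change -1.26, SE 0.18, adjusted p = 0.000849), and Txnrd1, thioredoxin reductase, fell by 0.58 on the log2 scale, while Gpx4, which detoxifies lipid peroxides, rose with 0.69 (adjusted p = 0.000512 and 0.00108). Adipogenic genes gave 2 higher and 1 lower of 8. The gene that fell, Car3, a carbonic anhydrase known from muscle and fat, was among the most abundant of all, at 11718, 7859, 11832 and 11924 CPM passaged and 6041, 2663, 6543 and 4885 CPM after 10 Gy (log2 fold change -1.15, SE 0.12, adjusted p = 0.000226). Immediate early genes gave 3 higher and 5 lower of 17, and 5 higher without replicate 3. Egr1 rose from 30.7, 14.8, 26.4 and 35.7 to 69.6, 38.5, 66.4 and 119 CPM (log2 fold change 1.42, SE 0.10, adjusted p = 4.55e-05), and Myc, which promotes growth, fell from 149, 135, 155 and 160.4 to 81, 66.9, 113 and 101 CPM (log2 fold change -0.74, SE 0.09, adjusted p = 0.000572).

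Across all genes with at least 5 CPM in the higher group and the same direction in all 4 pairs, the 12 largest rises included those of Mybpc1, Myot, Pamr1, Ccn3, Atp2a1, Capn6, Prr32, Lrrc15, Sypl2, Gabbr2 and Igfbpl1. Mybpc1, a myosin-binding protein of slow muscle, was at 0.508, 0.496, 0.527 and 0.0712 CPM in the passaged libraries of replicates 1 to 4 and at 53.4, 6.09, 47.3 and 42.4 CPM after 10 Gy. The passaged values are near the floor, and replicate 2 rose least (log2 fold change 6.44, SE 0.45, adjusted p = 4.19e-05). Myot, myotilin of the Z disc, was at 0.977, 0.78, 1.23 and 0.427 CPM passaged and 61, 11.6, 47.3 and 35.4 CPM after 10 Gy (log2 fold change 5.43, SE 0.29, adjusted p = 2.09e-05). Atp2a1, the calcium pump of fast muscle, was at 9.54, 6.45, 3.23 and 6.2 CPM passaged and 173, 26, 151 and 177 CPM after 10 Gy (log2 fold change 4.17, SE 0.50, adjusted p = 0.000417). These 3 and Sypl2, of the muscle triad, are muscle genes. Lrrc15, a membrane protein of activated fibroblasts, went from 0.86, 2.62, 2.71 and 1.14 to 15.4, 56.7, 23.6 and 18.4 CPM, with replicate 2 highest after 10 Gy (log2 fold change 3.92, SE 0.21, adjusted p = 2.29e-05). Ccn3, a matricellular protein, was at 0.508, 2.73, 2.04 and 0.677 CPM passaged and 18, 55.9, 23.4 and 11.7 CPM after 10 Gy (log2 fold change 4.20, SE 0.21, adjusted p = 1.73e-05), and Pamr1 at 0.743, 4.01, 0.492 and 0.641 CPM passaged and 30.3, 27, 15.1 and 21 CPM after 10 Gy (log2 fold change 4.21, SE 0.39, adjusted p = 0.000149). The log2 fold changes of Capn6, Prr32, Sypl2, Gabbr2 and Igfbpl1 lay between 3.82 and 3.98.

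The 12 largest falls by the same rule were in Ptchd3, Galnt14, Gdf10, Iqgap3, Troap, Nppb, Kash5, Psca, Tnfsf13b, Slc7a3, Kif14 and Gramd2. Ptchd3, a patched-related membrane protein, was at 7.78, 7.59, 4.99 and 5.23 CPM in passaged and 0.519, 1.02, 0.334 and 0.42 CPM in 10 Gy libraries (log2 fold change -3.51, SE 0.22, adjusted p = 3.15e-05). Gdf10, a growth factor of the BMP family, fell from 15.4, 16.6, 21.7 and 15.1 to 2.49, 1.33, 5.67 and 2.22 CPM (log2 fold change -2.65, SE 0.23, adjusted p = 0.00011), and Galnt14, which starts O-glycosylation, from 18, 21.4, 3.79 and 7.9 to 2.53, 2.76, 0.787 and 1.26 CPM (log2 fold change -2.70, SE 0.14, adjusted p = 2.09e-05). Iqgap3, Troap and Kif14 act in cell division and fell by 2.11, 2.1 and 1.93 on the log2 scale. Slc7a3, an importer of arginine and lysine, fell from 97.6, 73.5, 109.5 and 94.6 to 22.2, 9.74, 40.8 and 33.8 CPM (log2 fold change -1.95, SE 0.22, adjusted p = 0.000347). Tnfsf13b, the B cell factor BAFF, was at 4.85, 7.59, 4.08 and 3.63 CPM passaged and 0.9, 2.25, 0.954 and 0.989 CPM after 10 Gy (log2 fold change -2.0, SE 0.17, adjusted p = 0.000107). None of the genes named in these lists of rises and falls overlapped between the groups. The choice of the largest changes with the same direction in all 4 pairs favours this. The share of all genes without overlap was not counted, so no result is read from it.

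The *A. cahirinus* libraries labelled untreated at 12 d allow the same 8 libraries to be set beside another unirradiated group. Each of these comparisons shares libraries with the first, so their values are given side by side and no relation between them is read. Untreated against passaged called 3417 genes higher (26.3%) and 3014 lower (23.2%) of 12992, and 3348 in all without the block (25.8%). Against untreated, 10 Gy called 1870 genes higher (14.2%) and 1768 lower (13.4%) of 13215. Without the block the latter comparison called 379 genes in all (2.87%), and without replicates 1 or 3 it called 1175 and 1613.

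Mitosis genes were lower in the untreated than in the passaged group in 44 of 45 cases, with a median of -0.78. From untreated to 10 Gy 7 of 45 were lower and 1 higher, with a median of -0.47, and 0 of 45 were called without the block. Leaving out replicates 1 to 4 in turn gave 0, 11, 3 and 3 lower. The summed level of the 45 genes was 2338, 1387, 2298 and 2376 CPM in the passaged libraries of replicates 1 to 4, 946, 1050.1, 1262 and 1255 CPM in untreated and 805, 477, 1287 and 1019 CPM in 10 Gy libraries. The passaged libraries were all above the untreated ones. The untreated and 10 Gy libraries overlapped, since replicate 3 was slightly higher after 10 Gy than untreated. Mki67 stood at 49.1, 52.9, 62 and 70 CPM in the untreated libraries, and its difference from 10 Gy was not called (log2 fold change -0.70, SE 0.24, adjusted p = 0.0619, against 0.0364 without replicate 2). Ccnb1 at 23.9, 28.8, 31.3 and 28.5 CPM and Top2a at 66.9, 69.8, 91.6 and 95.5 CPM were not called between untreated and 10 Gy either (adjusted p = 0.53 and 0.0683), although without replicate 2 Top2a was (0.0193). For these 3 genes a fall from passaged to untreated libraries was called (log2 fold change -0.89, -1.23 and -0.74, adjusted p = 0.00105, 0.000291 and 0.00844, the last 0.0511 without the block).

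**Figure D4:**
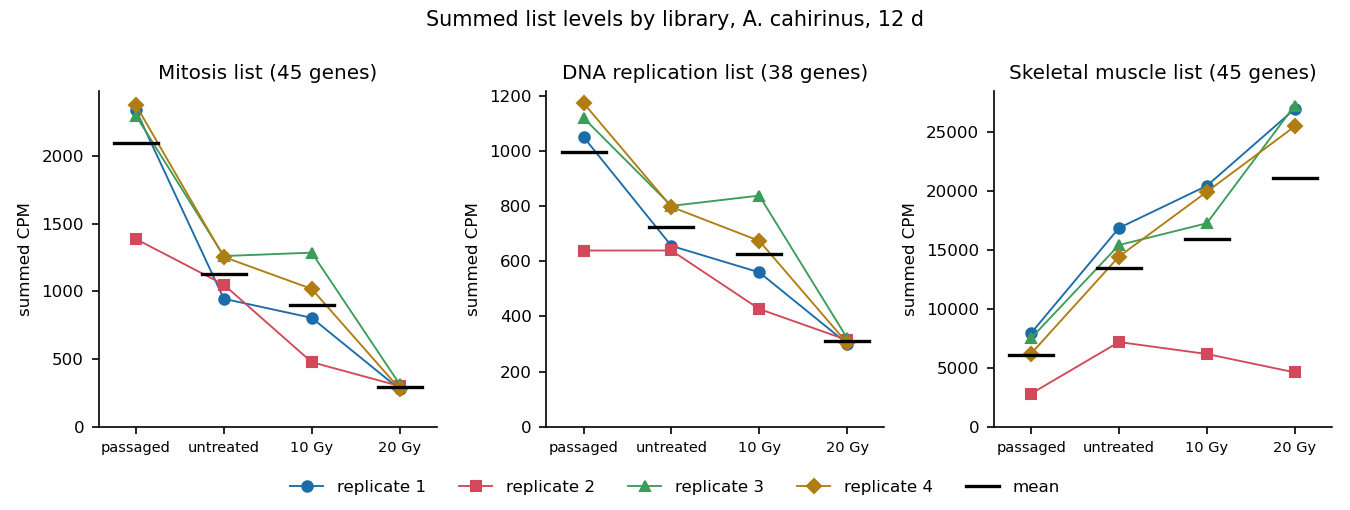
Summed CPM of gene lists in each *A. cahirinus* library at 12 d, with the groups on the horizontal axis 1 line per replicate number and a bar at the group mean. The mitosis sum is 1387 to 2376 CPM in passaged, 946 to 1262 CPM in untreated, 477 to 1287 CPM in 10 Gy and 278 to 315 CPM in 20 Gy libraries, and the muscle differentiation sum is lowest in replicate 2 of every group.

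Targets of p53 differed between untreated and passaged libraries too, with 14 higher and 7 lower of 29, against 9 and 5 without the block. Between 10 Gy and untreated 16 were higher and 3 lower, against 2 and 0 without the block and 8 and 0 without replicate 1. Cdkn1a was at 976, 675, 862 and 683 CPM in untreated libraries, between the other two groups with no overlap with either. It was higher in untreated than in passaged libraries (log2 fold change 0.95, SE 0.07, adjusted p = 2.5e-05) and higher after 10 Gy than in untreated libraries (log2 fold change 0.86, SE 0.12, adjusted p = 0.00336). Mdm2 and Ccng1 were at 107, 124, 90.7 and 89.6 and at 148, 175, 104 and 94.4 CPM untreated, within or close to their passaged ranges. Both rose from untreated to 10 Gy (Mdm2, log2 fold change 0.76, SE 0.10, adjusted p = 0.00297, against 0.121 without the replicate block; Ccng1, log2 fold change 1.13, SE 0.08, adjusted p = 0.000361, against 0.0922 without the replicate block), and neither was called between untreated and passaged (adjusted p = 0.733 and 0.758). Cdkn2a and Cdkn2b in untreated libraries lay between the other two groups in every replicate, at 50.4, 86.9, 34.1 and 50 and at 50.1, 61.4, 33.9 and 53.9 CPM, and both rose from untreated to 10 Gy with log2 fold changes of 0.87 and 0.61 (adjusted p = 0.000877 and 0.00142, 0.223 and 0.214 without the block).

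Of the secreted factors, Il6 was at 3.8, 7.38, 1.92 and 1.28 CPM in untreated libraries, close to the passaged level of each replicate, and rose from there to 10 Gy (log2 fold change 1.69, SE 0.17, adjusted p = 0.00108, against 0.181 without the replicate block). Ccl2 was lower in untreated than in passaged libraries, at 20.9, 36.1, 14.8 and 15.3 CPM (log2 fold change -1.07, SE 0.06, adjusted p = 1.12e-05, against 0.0661 without the replicate block), and rose to 10 Gy (log2 fold change 2.10, SE 0.09, adjusted p = 0.000109, against 0.0506 without the replicate block). Fst, Tnc and Igf2 were in untreated libraries at 31, 14.2, 39.5 and 38.9, at 778, 1307, 1108 and 874 and at 2221, 1061, 2430.3 and 2112 CPM, with log2 fold changes over passaged of 3.35, 3.0 and 1.77. Their differences between 10 Gy and untreated were -0.04, -0.10 and 0.18 (adjusted p = 0.882, 0.497 and 0.295). Col1a1 was higher in untreated than in passaged libraries, at 9532, 8507, 9391 and 10986 CPM (log2 fold change 0.46, SE 0.09, adjusted p = 0.00288), and lower after 10 Gy than untreated (log2 fold change -0.48, SE 0.09, adjusted p = 0.00719, against 0.089 without the replicate block and 0.0631 without replicate 1). Muscle differentiation genes were higher in untreated than in passaged libraries in 37 of 43 cases and lower in 1, against 25 and 0 without the block. They were higher after 10 Gy than untreated in 16 cases and lower in 1, against 1 and 0 without the block, and leaving out replicates 1 to 4 in turn gave 7, 26, 11 and 12 higher. Their sum in untreated libraries was 16848, 7178, 15400.0 and 14425 CPM.

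The 3 largest differences between 10 Gy and untreated libraries in each direction, by the rule used above, were rises of Scg2, Ngfr (adjusted p = 0.00103, against 0.103 without the replicate block) and Lgr6 and falls of Tnn, Cpa4 and Tfr2. Scg2, a granule protein of secretory cells, was at 2.16, 2.55, 2.41 and 0.904 CPM untreated and 45.1, 10.6, 36 and 16.1 CPM after 10 Gy, beside 5, 7.62, 6.82 and 3.13 CPM passaged (log2 fold change 3.61, SE 0.35, adjusted p = 0.000918). Lgr6, a receptor for R-spondins, was at 4.89, 2.28, 3.32 and 2.22 CPM untreated, 34.5, 9.09, 30.2 and 28.5 CPM after 10 Gy and 48.9, 17.1, 39 and 36.7 CPM passaged, so that the untreated group was the low one (log2 fold change 2.95, SE 0.23, adjusted p = 0.000472). Tnn, tenascin N, was at 660.4, 230.1, 811 and 968 CPM untreated, 97.1, 27.7, 232 and 222 CPM after 10 Gy and 75.4, 88.3, 88.3 and 128 CPM passaged, so that the untreated group was the high one (log2 fold change -2.42, SE 0.19, adjusted p = 0.0005, against 0.107 without the replicate block). Between untreated and passaged libraries the largest rises were in Lrrc15, Mybpc1 and Myot and the largest falls in Psca, Notum and Ptchd3. Notum, which inactivates WNT proteins, fell from 7.04, 3.23, 10.5 and 7.37 to 0.89, 0.267, 1.01 and 0.263 CPM (log2 fold change -3.56, SE 0.26, adjusted p = 2.87e-05).

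The 20 Gy libraries place the 10 Gy values on a dose scale. From 10 to 20 Gy 1121 genes were higher (8.26%) and 1305 lower (9.62%) of 13564. Without the block 62 genes were called (0.457%), 2 (0.0147%) higher and 60 (0.442%) lower, and leaving out replicates 1 to 4 in turn gave 699, 4932, 573 and 567 calls in all, so these counts rest on the choice of replicates. Mitosis genes were lower at 20 Gy in 40 of 44 cases, with a median of -2.28, and 22 without the block. Their sum at 20 Gy was 278, 301, 315 and 282 CPM, below every 10 Gy library. Mki67 at 20 Gy was 3.6, 3.35, 6.61 and 3.87 CPM (log2 fold change -3.09, SE 0.21, adjusted p = 0.000102), and Lmnb1 4.82, 4.14, 4.83 and 5.43 CPM (log2 fold change -2.85, SE 0.25, adjusted p = 0.000394). Cdkn1a was at 2429.6, 1554, 2122 and 2082 CPM at 20 Gy, higher than at 10 Gy in replicates 1, 3 and 4 and slightly lower in replicate 2 (log2 fold change 0.50, SE 0.14, adjusted p = 0.041, against 0.263 without the replicate block, 0.131 without replicate 1, 0.165 without replicate 3 and 0.172 without replicate 4). The largest falls were in Kif2c, Plk1 and Depdc1a, all of mitosis, and the largest rises in Col22a1, Rtl1 (adjusted p = 0.0112, against 0.271 without the replicate block and 0.0605 without replicate 4) and Inpp5j (adjusted p = 0.00224, against 0.433 without the replicate block). Plk1, the polo-like kinase, was at 13.4, 5.79, 26.3 and 16.8 CPM at 10 Gy and 0.574, 0.47, 1.2 and 0.854 CPM at 20 Gy (log2 fold change -4.28, SE 0.17, adjusted p = 8.73e-06). Col22a1, a collagen of muscle-tendon junctions, was at 11.3, 1.36, 3.41 and 2.43 CPM at 10 Gy and 27.8, 1.44, 40.8 and 11.3 CPM at 20 Gy (log2 fold change 2.01, SE 0.43, adjusted p = 0.0168, against 0.364 without the replicate block, 0.0521 without replicate 3 and 0.0885 without replicate 4).

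The same contrast in C56BL6 mice tests whether the change from passaged to 10 Gy differs between the populations. The replicate numbers were used as separate blocks in the 2 populations, the tables were made against different assemblies, and only the changes within each population were compared. Of 13827 genes, 2926 (21.2%) had a higher log2 change in *A. cahirinus* than in C56BL6 and 2641 (19.1%) a lower one, and 2370 (17.1%) were called in all without the block and 3682 without replicate 3. C56BL6 replicate 1 stood apart: its keratinocyte markers summed to 411 CPM passaged and 203 CPM after 10 Gy, against 1.32 to 3.18 CPM in the other 6 C56BL6 libraries. Muscle markers, as given above, were far higher in *A. cahirinus*. The part of these cell type differences in the contrast between populations was not tested.

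Mitosis genes fell less in *A. cahirinus*. The difference in log2 change was positive and called for 42 of 45 genes and negative for 1, with a median of 1.77, and 26 and 1 were called without the block. In C56BL6 their sum went from 3423, 2435, 2918 and 2684 CPM to 786, 285, 356 and 329 CPM, beside the *A. cahirinus* values above. Replicate 1 was the highest C56BL6 library after 10 Gy. Mki67 in C56BL6 was at 225, 180.3, 231 and 176 CPM passaged and 28.3, 7.29, 11 and 7.29 CPM after 10 Gy, a mean log2 change of -4.09 against -1.62 in *A. cahirinus* (log2 difference 2.51, SE 0.40, adjusted p = 0.000675). In C56BL6 Lmnb1 was at 75.2, 59.3, 73.5 and 71.8 CPM passaged and 12.6, 8.08, 9.77 and 8.88 CPM after 10 Gy (log2 difference 1.84, SE 0.17, adjusted p = 3.12e-05). Cdkn1a rose more in *A. cahirinus*. Its C56BL6 levels were 333, 435, 349 and 408 CPM passaged and 688, 794, 786 and 838 CPM after 10 Gy (log2 difference 0.77, SE 0.12, adjusted p = 0.000772). Cdkn2a and Mdm2 showed no called difference (Cdkn2a, adjusted p = 0.129, against 0.0387 without replicate 3; Mdm2, adjusted p = 0.41).

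Interferon-stimulated and cytokine genes mostly had a lower log2 change in *A. cahirinus*. Of 25 interferon-stimulated genes 17 had a called negative difference and 2 a positive one, with a median of -2.11, and 17 negative calls were made without the block. In C56BL6 the list summed to 198 to 224 CPM passaged and 830.5 to 877 CPM after 10 Gy, in *A. cahirinus* to 233 to 308 and 219 to 342 CPM. Of 21 cytokine genes 13 differed negatively and 2 positively, against 3 and 0 without the block. Within *A. cahirinus* alone 17 interferon-stimulated and 17 cytokine genes passed the filter, so others entered through the C56BL6 libraries. Of the listed genes, 5 interferon-stimulated and 3 cytokine genes were at 0 counts in every passaged *A. cahirinus* library. The counts and the median above thus rest in part on genes at or near 0 in *A. cahirinus*. Mmp3 in C56BL6 rose from 0, 0.0933, 0.0774 and 0.216 to 2.4, 9.45, 7.09 and 11.4 CPM, a mean log2 change of 3.59 (log2 difference -4.19, SE 0.65, adjusted p = 0.000594). Il6, at 3.02, 21.9, 44.7 and 35.5 CPM passaged and 13.8, 63, 103 and 106 CPM after 10 Gy in C56BL6, had no called difference (log2 difference 0.29, SE 0.19, adjusted p = 0.249, against 0.047 without replicate 1). Collagen genes differed positively in 18 of 30 cases and negatively in 3, against 13 and 0 without the block. Col1a1 went from 6870.4, 9442, 9067 and 9917 to 3475, 2618, 2939.8 and 2686 CPM in C56BL6, while it was not called in *A. cahirinus* (log2 difference 1.55, SE 0.20, adjusted p = 0.000205).

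**Figure D5:**
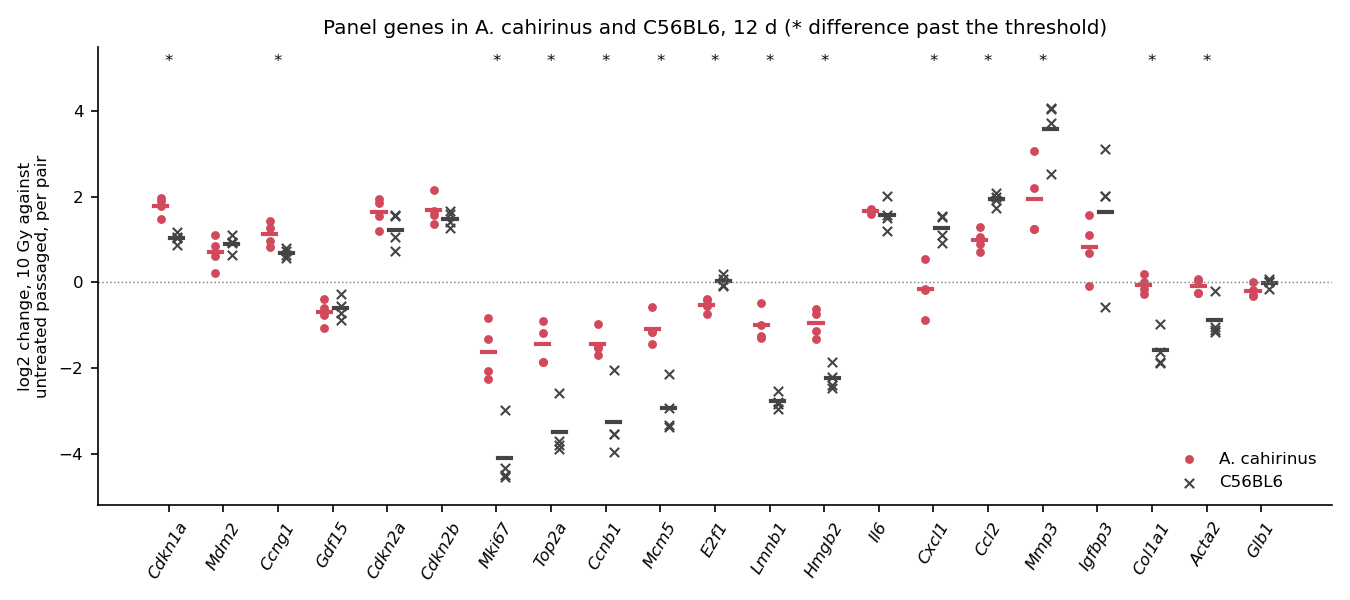
Log2 change from passaged to 10 Gy within each replicate pair (pseudocount 0.5 CPM) for the panel genes, with 4 points for *A. cahirinus* and 4 for C56BL6, and an asterisk where the difference between populations passed the threshold. Mki67 changed by a mean of -1.62 in *A. cahirinus* and -4.09 in C56BL6, and 14 of the 21 panel genes shown carry an asterisk. Over all genes, 21.2% had a called positive difference and 19.1% a called negative one.

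The largest positive differences by rule included those of Prkg2 and Soat2, and the largest negative ones those of Lcn2 and Crym. Lcn2, the iron-scavenging lipocalin, was at 0, 0.187, 0.542 and 0.577 CPM passaged and 3.04, 82.8, 112 and 131 CPM after 10 Gy in C56BL6, and at 0.0782, 0.461, 0.422 and 0.107 CPM passaged and 0.242, 1.12, 0.525 and 0.21 CPM after 10 Gy in *A. cahirinus* (log2 difference -7.06, SE 0.45, adjusted p = 4.63e-06). Prkg2, a cGMP-dependent kinase, was at 42.5, 35.1, 23.7 and 29.2 CPM passaged and 9.48, 9.33, 7.7 and 7.14 CPM after 10 Gy in C56BL6 and at 0, 0.284, 0 and 0.249 CPM passaged and 2.94, 1.06, 2.26 and 4.05 CPM after 10 Gy in *A. cahirinus* (log2 difference 6.13, SE 0.52, adjusted p = 1.84e-05). Crym, a thyroid hormone binding protein, was at 0 counts in every passaged C56BL6 library and at 0.283, 0.438, 0.445 and 0.27 CPM after 10 Gy. In *A. cahirinus* Crym was at 39.5 to 43.3 CPM passaged and 26.5 to 41.2 CPM after 10 Gy. Soat2, which esterifies cholesterol, held a single count over the passaged *A. cahirinus* libraries. The call of Soat2 was lost without replicate 1 (adjusted p = 0.00443, against 0.0828 without replicate 1). The fitted differences of Crym, Soat2, Prkg2, Lcn2 and Mmp3, each with a group at or near 0 counts, depend on the prior count and are no bounds.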

How the data were processed

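Stranded mRNA libraries were made from polyA RNA, and all 12 d libraries belong to 1 batch in the labels. The deposited tables hold unnormalized gene counts that the authors made with featureCounts 2.0.3, per the file headers, with the *A. cahirinus* table counted against an assembly named AcoCah2 and no option set for strand, read pairs, multiply mapped reads or overlapping genes. Antisense, overlapping and near-identical genes are uncertain for this reason. Trim Galore and HISAT2 are named in the submitters' processing notes, without versions. Gene lengths beside the counts, deposited by the authors as other values, entered no test. 0 count columns were left unused.

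Counts were tested with edgeR 4.0.16 in R 4.3.3: filterByExpr, scaling by trimmed means of M values (TMM), the quasi-likelihood test with the replicate number as a block, and Benjamini-Hochberg adjustment over all genes with a threshold of 0.05. CPM values use TMM-scaled totals. SE is the log2 fold change divided by the root of the F statistic. Each fit held the groups compared, and the populations were compared by an interaction over the 18109 symbols that occur exactly 1 time in both tables, each table scaled by itself. The block comes from the titles, whose numbers go with 1 code each in the library names. Same-numbered libraries had a mean correlation of deviations of 0.64, other libraries -0.16. The replicate variance exceeded sampling noise in every pair, so each library counted once. On simulated data for 10 Gy against passaged (13034 genes) 91.8% and 94% of genes lowered or raised 2-fold were recovered, and 0.0935% of unchanged genes were called. In that simulation 12837 genes were unchanged, and each change was the same in every pair. Its counts were drawn from the kind of model that was then fitted. The rates hold for that setting, in which far fewer genes change than were called in the data.

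The members and the 24 gene lists were chosen with earlier results of these data known. Names in the text follow a rule: a panel of 22 genes, the 12 largest rises and falls with at least 5 CPM in the higher group and the same direction in all 4 pairs (3 each for other comparisons), and up to 4 called members of each list with at least 5 CPM. For the difference between populations the last part required every *A. cahirinus* pair to lie on 1 side of every C56BL6 pair. Other names were chosen after their values were seen, and so were the 46 muscle differentiation genes. The listed symbols Acat2, C1s, Mx1, Mx2, Rigi, Sp100 and Lyz2 were not matched in the table. Some genes that the rule names are not reported here. Mouse identifiers were matched to symbols for 56236 of 56980. Promoter windows are from RefSeq. Alternatives were no block, relative log expression (RLE) size factors, no filter, DESeq2 1.42.0, all groups in 1 fit and leaving out each replicate number.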

Additional observations from a re-analysis of the deposited data

Results flagged for a closer look

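In 11 of 88 groups of 4 libraries checked, a single library lay far from the other 3 by Dixon's criterion. In 10 of the 11 that library was replicate 2. Chance alone meets the criterion in about 1 of 20 independent groups. These checks reuse the same libraries over genes that move together, so their count cannot be set against that rate. Passaged replicate 2 was the lowest for the dividing-cell genes Top2a (72.6 CPM), Ccnb1 (44.3 CPM), Mcm5 (17.3 CPM) and E2f1 (22.8 CPM) and for Psca (13.8 CPM), and the highest for Pamr1 (4.01 CPM). At 10 Gy replicate 2 was the lowest for the muscle genes Mybpc1 (6.09 CPM) and Atp2a1 (26 CPM) and for Capn6 (4.49 CPM), and the highest for Tnfsf13b (2.25 CPM). The remaining library was passaged replicate 4, the lowest for Mybpc1 at 0.0712 CPM, which is under the floor of 3 counts.

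The change from passaged to 10 Gy differed between *A. cahirinus* and C56BL6 for 18 named genes by the interaction test, 14 of them among 21 panel genes. Over all genes, 21.2% had a called positive difference and 19.1% a called negative one. The log2 change in *A. cahirinus* minus that in C56BL6 was positive for Mki67 (2.51), Top2a (2.08), Ccnb1 (1.91), Mcm5 (1.90), Lmnb1 (1.84), Hmgb2 (1.34), Col1a1 (1.55), Acta2 (0.80), Cdkn1a (0.77) and Ccng1 (0.45). It was negative for Mmp3 (-4.19), Cxcl1 (-1.66), Ccl2 (-0.95) and E2f1 (-0.56). The level of Cxcl1 in *A. cahirinus* was low in both groups, and its change there was not called. The genes chosen for their size were Prkg2 (6.13) and Soat2 (5.26) on the positive side and Lcn2 (-7.06) and Crym (-6.74) on the negative side, and all 4, like Mmp3, rest on a group at or near 0 counts. These 4 were picked from the genes called in this test, so their calls were fixed by the choice. Without the replicate block the calls of Ccng1, Mcm5, E2f1, Cxcl1, Ccl2 and Acta2 were lost.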

How the results depend on the processing

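Without the replicate block, 10 Gy against passaged called 2643 genes, 10 Gy against untreated 379, untreated against passaged 3348, 20 against 10 Gy 62 and the difference from C56BL6 2370, and all 2643 calls of the first were also calls with the block. Leaving out each replicate number in turn gave 3764 to 6261 calls for 10 Gy against passaged, 1175 to 3564 for 10 Gy against untreated, 567 to 4932 for 20 against 10 Gy and 3682 to 5123 for the difference. RLE size factors, DESeq2 and no filter kept these 5 counts within 1.5 times, as did 1 fit of all groups for the 4 within *A. cahirinus*. Of 225 gene results 74 lost their call without the block and none changed sign, 19 lost it without replicate 1, 16 without replicate 3 and 16 without replicate 4. Over the replicates left out, Ccnb1 and Fst (10 Gy against untreated) ranged over -0.37 to 0.10 and -0.18 to 0.23, Mdm2 and Ccng1 (untreated against passaged) over -0.07 to 0.04 and -0.04 to 0.09, Mdm2 (difference from C56BL6) over -0.34 to 0.03, and in 10 Gy against passaged Cxcl1 over -0.74 to 0.14, Col1a1 over -0.12 to 0.04, Tnn over -0.11 to 0.87 and Cpa4 over -0.01 to 0.46 (log2), none called with all replicates. The cause was not tested, beyond the smaller number of libraries. Genes under about 0.1 CPM are at the floor of 3 counts.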
